A study of Mus musculus with 8 samples.

Results

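The major histocompatibility complex (MHC) class I genes of the mouse lie in the H2 region of chromosome 17. They were taken here as all rows of the deposited gene count table whose symbol begins with H2-K, H2-D1, H2-Q, H2-T, H2-M or H2-Bl, which gave 33 of 54532 gene rows. Of the 33 rows, 25 are listed as protein-coding, 5 as unprocessed pseudogenes and 3 as polymorphic pseudogenes. H2-Ke6, a steroid dehydrogenase gene, also matches the pattern and is no class I gene, and it had 3 counts or fewer in every library.

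RNA was sequenced from macrophages collected from the peritoneal cavity of mice after stimulation with thioglycollate broth, which is used to elicit an influx of leukocytes. The libraries fall into 3 M_KO, 3 M_WT, 1 F_KO and 1 F_WT library, where KO stands for a knockout of Men1, the gene of the scaffold protein menin, and WT for wild type. All 8 libraries share the tissue, the cell type label and the broth, while the letters M and F, the strain, the age, the H2 haplotype and the way Men1 was deleted are not given in the labels. Nothing in the labels says that the libraries came from separate animals, so p-values measure the spread between these libraries, which may be technical.

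Class I molecules are surface proteins made of a heavy chain and the light chain beta-2-microglobulin, and they display peptides from inside the cell. The classical heavy chains H2-K1 and H2-D1 are present on nearly all nucleated cells and are read by CD8 T cells, while the nonclassical ones of the Q, T and M subregions have narrower expression and often a specialised partner on natural killer or gamma delta T cells. Interferons raise the expression of most of these genes in macrophages, and the classical genes differ between the H2 haplotypes of inbred mouse strains.

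Library totals ran from 18206427 to 22853583 counts, and a count of 0 allows up to 3 counts, or 0.120 to 0.170 CPM (read counts scaled to library size, with TMM factors over the 8 libraries). Such floors and the intervals below cover counting error only. Men1 was at 8.15, 6.45 and 8.42 CPM in M_KO, against 25.7, 17.1 and 21.4 CPM in M_WT. It was at 11.7 CPM in F_KO, against 18.1 CPM in F_WT. The summed level of 6 macrophage markers was 14412 to 16730 CPM in M_KO and 17241 to 25359 CPM in M_WT, most of it from Lyz2. Without Lyz2 the other 5 summed to 4564 to 5349 CPM in M_KO and to 4374 to 4811 CPM in M_WT, which overlap, and of the 6 markers 3 had a fitted fold change below 0 and 3 above. In bulk RNA, fewer cells of a type and less RNA per cell cannot be told apart. Within each group, values are given in the order M_KO_5944, M_KO_5645 and M_KO_5642, and M_WT_5643, M_WT_6258 and M_WT_6255, the numbers being those of the sample titles.

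How alike the heavy chain genes are bears on every value that follows, since a short read can match several of them. The longest reading frames of H2-T22 and H2-T10 were 96.3% identical over 1140 aligned bases in the GENCODE M21 transcripts. H2-Q6 and H2-Q7 were 95.4% identical, and H2-K1 and H2-D1 91.5%. The same stretch of 90 coding bases is shown for 9 of the genes, with the bases that differ from H2-K1 in capitals. It covers coding bases 568 to 657 of H2-K1, and the number of differing bases was 8 in H2-D1, 18 in H2-Q1, 17 in H2-Q7, 23 in H2-T23 and 39 in H2-T24.
H2-K1: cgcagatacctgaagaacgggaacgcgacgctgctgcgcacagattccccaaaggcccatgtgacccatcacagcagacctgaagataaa
H2-D1: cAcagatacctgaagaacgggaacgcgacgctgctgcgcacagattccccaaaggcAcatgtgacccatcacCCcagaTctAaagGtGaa
H2-Q1: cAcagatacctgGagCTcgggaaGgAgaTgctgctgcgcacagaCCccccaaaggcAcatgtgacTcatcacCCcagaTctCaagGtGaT
H2-Q6: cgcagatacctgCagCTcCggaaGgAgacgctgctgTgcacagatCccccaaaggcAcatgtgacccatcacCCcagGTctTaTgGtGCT
H2-Q7: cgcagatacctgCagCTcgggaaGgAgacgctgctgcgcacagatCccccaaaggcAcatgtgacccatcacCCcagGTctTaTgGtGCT
H2-T22: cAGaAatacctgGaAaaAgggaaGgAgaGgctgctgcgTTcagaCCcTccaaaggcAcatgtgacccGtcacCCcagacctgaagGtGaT
H2-T23: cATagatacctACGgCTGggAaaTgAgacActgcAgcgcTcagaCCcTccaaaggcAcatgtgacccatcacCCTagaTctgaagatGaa
H2-T24: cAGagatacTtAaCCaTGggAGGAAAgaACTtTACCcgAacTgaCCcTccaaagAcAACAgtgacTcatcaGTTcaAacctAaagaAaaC
H2-M2: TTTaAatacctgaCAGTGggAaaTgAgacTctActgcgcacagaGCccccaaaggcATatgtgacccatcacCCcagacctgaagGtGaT

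Over whole transcripts, the share of 50-base stretches that also occur in a transcript of another gene was 53.5% for H2-T22, 50.4% for H2-T10, 36.4% for H2-Q4, 36.4% for H2-Q5 and 35.0% for H2-Q6. It was 12.8% for H2-D1, 9.63% for H2-K1, 14.5% for H2-T23 and 15.0% for H2-Q1, and 3.17% for H2-T24, 1.61% for H2-M2 and 0.576% for H2-M3. How reads that fit several genes were counted is not given in the sources used here. By this share alone, levels of H2-T22, H2-T10, H2-Q4, H2-Q5 and H2-Q6 are therefore less certain than those of H2-T24, H2-M2 and H2-M3. The share covers reference transcripts only, and how reads of alleles that differ from the reference were mapped was not tested. H2-M2 also had only 3 to 6 counts in its 3 lowest libraries.

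Of the 33 rows, 16 reached 30 counts in at least 1 library, and the same 16 passed the expression filter of the test. Another 6 rows had counts but at most 8 in any library. They were H2-Ke6, H2-Q2, H2-Q3, H2-Bl, H2-M6-ps and H2-T3, the thymus leukemia antigen gene known from gut epithelium. The remaining 11 rows had 0 counts in all 8 libraries, and all belong to the H2-M group, which has 14 rows. They include H2-M1, H2-M9 and the H2-M10 genes, which are known from sensory neurons of the vomeronasal organ.

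Per length of gene, in deposited FPKM, H2-D1 was the highest class I row, with a mean of 1643 FPKM over 8 libraries (range 1186 to 2319), place 13 among all gene rows. H2-K1 followed with 701 FPKM (range 234 to 1293), place 51. The lowest H2-D1 library was below the highest H2-K1 library, so their ranges overlap. H2-Q4 (69.9 FPKM), H2-Q6 (66.4 FPKM) and H2-T23 (63.1 FPKM) came next, and their ranges of 42.0 to 109, 16.1 to 131 and 1.67 to 126 FPKM overlap almost fully. H2-Q7 averaged 28.8, H2-M3 20.5, H2-K2 17.3, H2-Q5 15.1 and H2-T22 12.3 FPKM, again with overlapping ranges. Below 6 FPKM were H2-T10 (5.64), H2-T-ps (4.74), H2-T24 (3.85), H2-Q1 (1.41), H2-M2 (0.949) and H2-Q10 (0.354), the last a secreted class I molecule known mainly from liver.

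**Figure D1:**
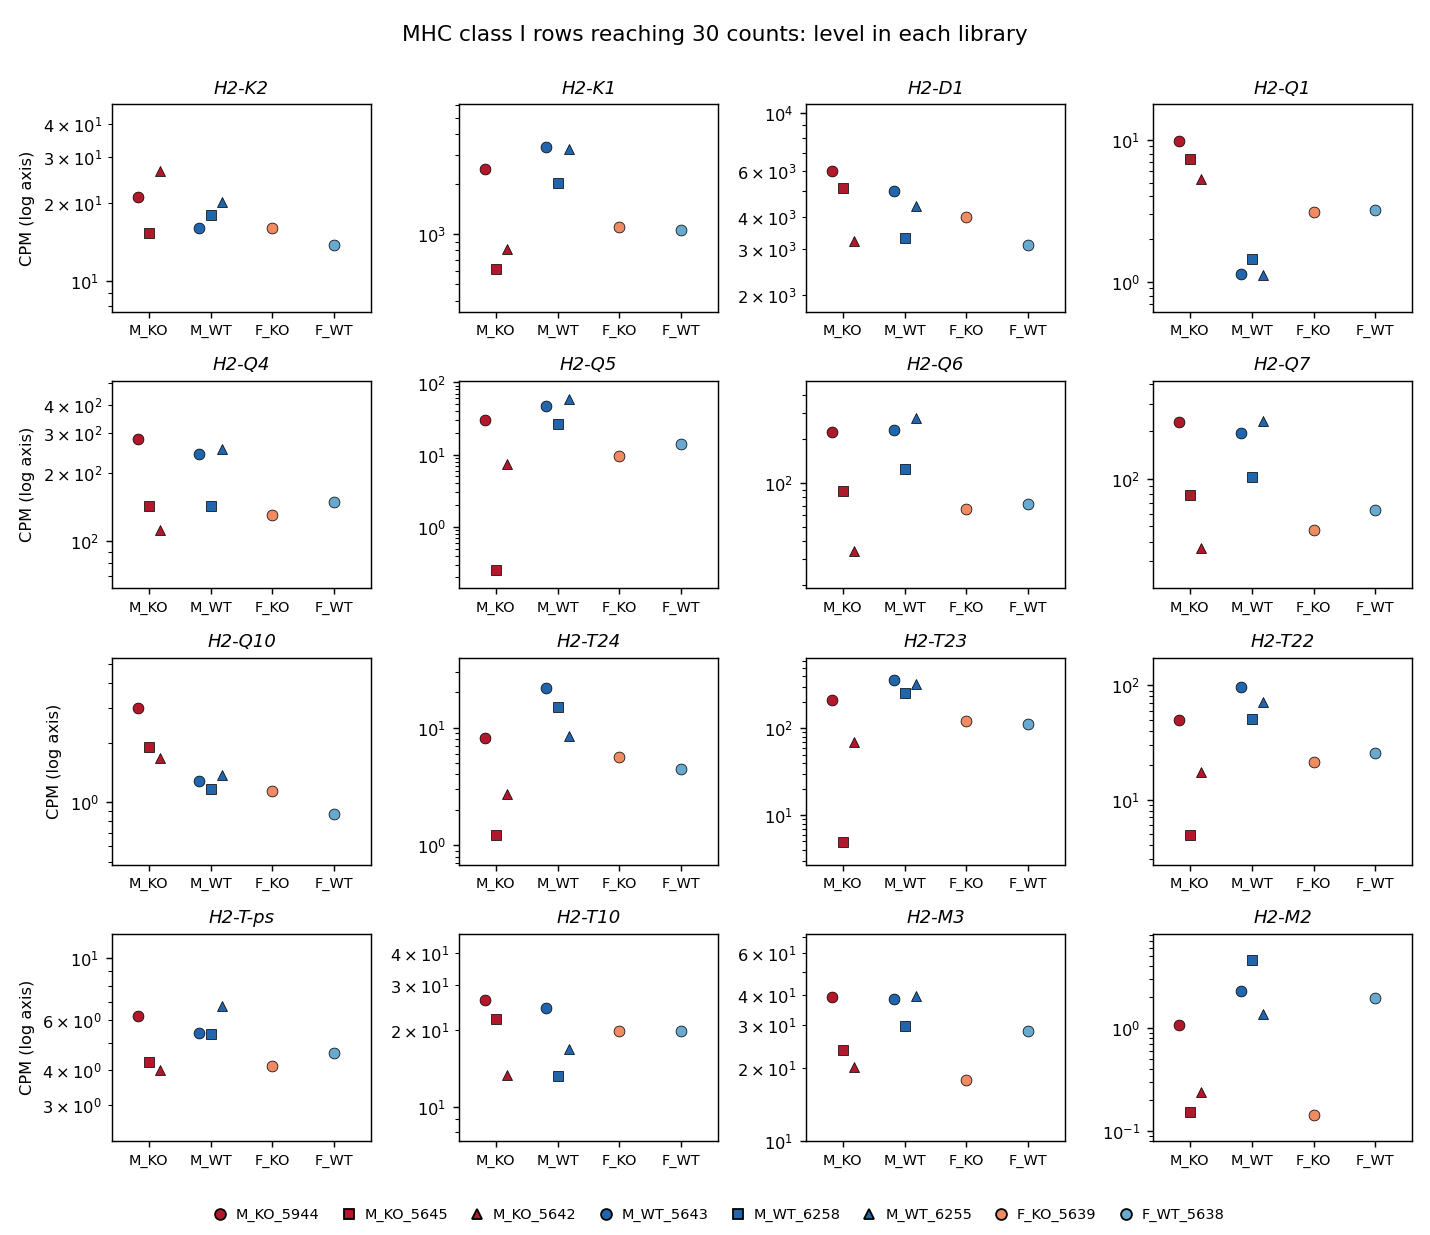
Level in CPM (log axis, own scale in each panel) of the 16 class I rows that reached 30 counts in a library, with 1 point per library and the groups M_KO, M_WT, F_KO and F_WT from left to right. H2-Q1 lies between 5.27 and 9.84 CPM in M_KO and between 1.11 and 1.44 CPM in M_WT, and M_KO_5645 (square) lies far below the other libraries for H2-Q5 and H2-T23.

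The class I rows were compared between M_KO and M_WT with edgeR's quasi-likelihood test, with p-values adjusted over all 13646 genes tested by the Benjamini-Hochberg method and a threshold of 0.05. The test called 0 of 16 class I rows, beside 3 genes in all (0.022%). At an unadjusted p under 0.05 it found 3 of the 16, beside 9.56% of all genes. These were 1 higher, H2-Q1, beside 5.33% of all genes, and 2 lower, H2-T24 and H2-M2, beside 4.22% of all genes. DESeq2 called 1 of 17 class I rows, H2-Q1, beside 181 genes or 1.09% of all, and beside 0.554% called higher. The fitted log2 fold change was below 0 for 11 of the 16 rows, beside 48.5% of all genes, and its median was -0.50, beside 0.01 over all genes.

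**Figure D2:**
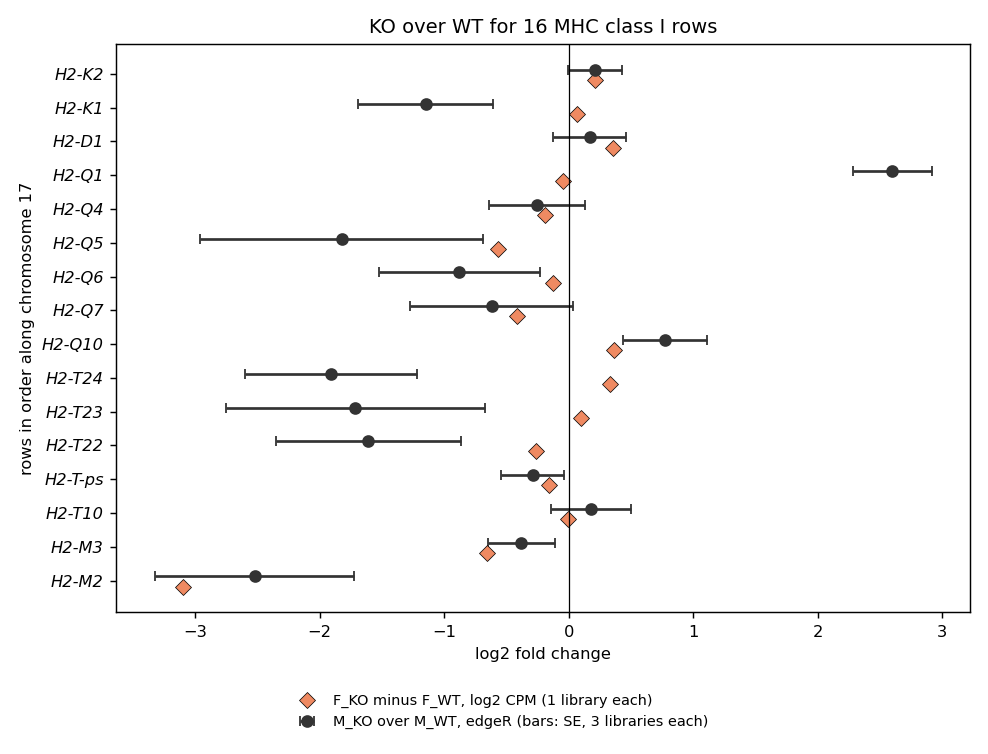
Log2 fold change of the 16 class I rows in order along chromosome 17. Circles are M_KO over M_WT from edgeR with bars of 1 standard error (3 libraries each), and diamonds are F_KO minus F_WT in log2 CPM (1 library each, no error). H2-Q1 stands at 2.60 in the M comparison and at -0.05 in the F pair, and H2-M2 at -2.52 and -3.10.

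Of the classical pair, H2-K1 (ENSMUSG00000061232, chr17:33996017-34000333, minus strand) had 2469, 618 and 818 CPM in M_KO, against 3361, 2036 and 3241 CPM in M_WT. M_KO_5645 and M_KO_5642 were below all 3 M_WT libraries, and M_KO_5944 was above M_WT_6258, so the groups overlap. H2-K1 was at 1109 CPM in F_KO and at 1057 CPM in F_WT. Its M_KO mean was 1302 ± 1016 CPM and its M_WT mean 2879 ± 733 CPM (SD, n = 3 each), with a log2 fold change of -1.15 (SE 0.54, edgeR adjusted p = 0.550). Without M_KO_5944 the H2-K1 fold change was -2.01 (edgeR adjusted p = 0.118), without M_KO_5645 it was -0.81, and over all alternatives the adjusted p ran from 0.118 to 0.923.

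H2-D1 (ENSMUSG00000073411, chr17:35262730-35267499, plus strand) had 5990, 5132 and 3213 CPM in M_KO, against 5003, 3324 and 4380 CPM in M_WT. It was at 3978 CPM in F_KO and at 3115 CPM in F_WT. The M groups overlap, and the highest and the second lowest library are both M_KO. The log2 fold change was 0.17 (SE 0.29, edgeR adjusted p = 0.880), and it was -0.02 without M_KO_5944.

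The 2 classical genes did not move in parallel. H2-D1 over H2-K1, in FPKM, was 2.45, 8.39 and 3.97 in M_KO, against 1.51, 1.65 and 1.37 in M_WT, and it was 3.63 in F_KO and 2.98 in F_WT. Every M_KO library was above every M_WT library in this ratio, while the F pair of either genotype lay within the M_KO range. Correspondingly, H2-D1 held 62.4%, 83.5% and 73.3% of the CPM of all 33 rows in M_KO, against 51.8%, 54.0% and 49.0% in M_WT, and 71.7% in F_KO and 66.5% in F_WT. The ratio was chosen after its values were seen and is given without a test.

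Summed over the 33 rows, the level was 9606, 6147 and 4382 CPM in M_KO, against 9650, 6153 and 8936 CPM in M_WT. It was 5550 CPM in F_KO and 4686 CPM in F_WT. A sum keeps together any reads that were divided among these rows. Reads left uncounted because they match several genes, if any, are missing from it too. It also does not hold together reads shared with genes outside these rows. A930015D03Rik is such a gene, in which 26.5% of the 50-base stretches of H2-T22 also occur. The groups overlap, with means of 6712 ± 2658 CPM in M_KO and 8246 ± 1847 CPM in M_WT (SD, n = 3 each). Without H2-D1 the sum was 3616, 1015 and 1169 CPM in M_KO, against 4647, 2829 and 4555 CPM in M_WT. That sum overlaps too, since M_KO_5944 lies above M_WT_6258.

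**Figure D3:**
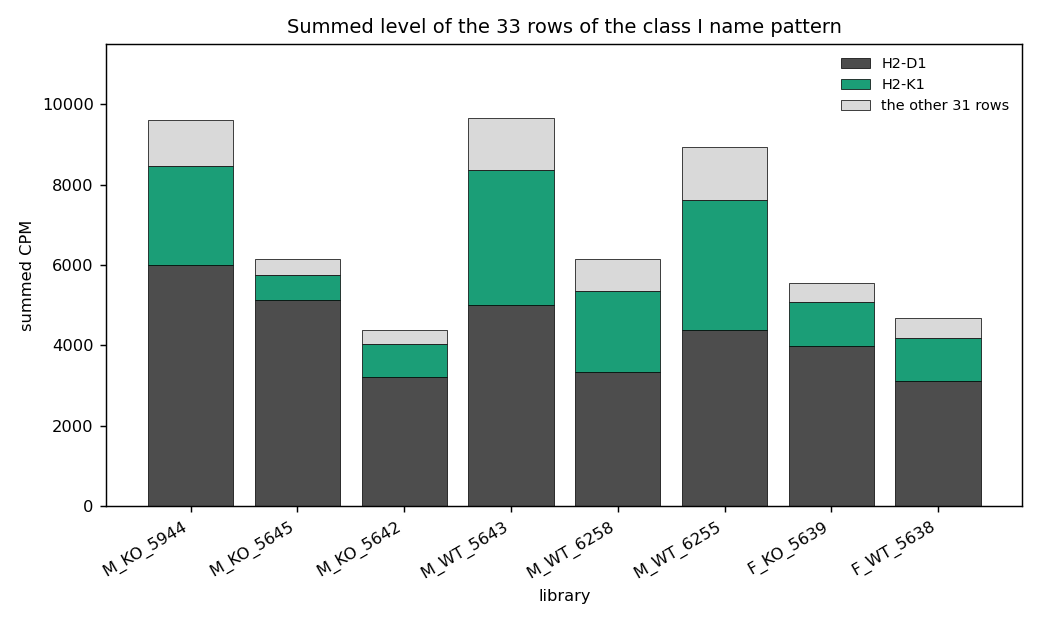
Summed CPM of the 33 rows in each library, as stacked bars of H2-D1, H2-K1 and the other rows, with KO libraries left of WT libraries for each letter. H2-D1 makes up 83.5% of the bar in M_KO_5645 and between 49.0% and 54.0% in the 3 M_WT libraries.

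Promoter sequence is shown for both classical genes and for H2-T23, which parted from them in some libraries. Each is the RefSeq window of 250 bases before to 50 after the start (GRCm38.p6), at chr17:34000284-34000583 (minus strand) for H2-K1, chr17:35262844-35263143 (plus strand) for H2-D1 and chr17:36032652-36032951 (minus strand) for H2-T23. Capitals mark the enhancer A core GGGATTCCC, a binding sequence of NF-kB factors, or the interferon-stimulated response element core GAAANNGAA, both searched on both strands. In H2-T23 the capitals lie on the opposite strand.
H2-K1: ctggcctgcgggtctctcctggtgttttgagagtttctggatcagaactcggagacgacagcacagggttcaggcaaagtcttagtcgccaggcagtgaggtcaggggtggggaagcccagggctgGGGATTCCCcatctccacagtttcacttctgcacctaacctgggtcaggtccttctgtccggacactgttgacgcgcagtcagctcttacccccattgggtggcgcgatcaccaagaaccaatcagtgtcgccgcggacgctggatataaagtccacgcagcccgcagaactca
H2-D1: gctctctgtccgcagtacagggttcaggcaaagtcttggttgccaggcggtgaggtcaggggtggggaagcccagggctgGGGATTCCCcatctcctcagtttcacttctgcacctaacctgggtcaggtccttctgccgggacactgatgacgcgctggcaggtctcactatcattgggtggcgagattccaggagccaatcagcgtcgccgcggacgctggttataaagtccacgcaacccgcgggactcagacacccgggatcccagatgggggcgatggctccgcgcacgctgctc
H2-T23: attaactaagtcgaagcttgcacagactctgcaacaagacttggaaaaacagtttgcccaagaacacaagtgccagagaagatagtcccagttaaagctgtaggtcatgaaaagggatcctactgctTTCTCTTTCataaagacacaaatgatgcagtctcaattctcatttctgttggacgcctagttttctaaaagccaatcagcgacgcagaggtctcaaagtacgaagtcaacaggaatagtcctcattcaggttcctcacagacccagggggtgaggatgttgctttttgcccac

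Promoters were in the reference table for 11 of the 16 rows. The enhancer A core was found in 4 of these 11, H2-K1, H2-D1, H2-Q6 and H2-Q7, beside 0.353% of all 32851 promoters of that length. The response element core was found in 2 of 11, H2-T22 and H2-T23, beside 8.56% of all. Only the letters GAAANNGAA were searched, so a variant of the element would not be found. The stretch tttcacttct in the H2-K1 and H2-D1 windows, for example, does not match these letters on either strand. A promoter without a match is therefore not shown to lack the element. The letters TGACG of the X2 or CRE box were in 7 of 11, beside 20.8%, and the CCAAT box letters ATTGG in 10 of 11, beside 37.4%. H2-K1 and H2-D1, whose levels had different ratios between libraries, both hold the enhancer A core, TGACG and ATTGG in this window. A match is a description of letters and not of a bound site.

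Among the Q genes, H2-Q1 (ENSMUSG00000079507, chr17:35320405-35325099, plus strand) had the largest fitted fold change. It had 174, 144 and 132 counts in M_KO, against 23, 27 and 22 counts in M_WT, and 65 counts in F_KO and 74 counts in F_WT. In CPM these were 9.84, 7.38 and 5.27 in M_KO, against 1.13, 1.44 and 1.11 in M_WT, and 3.10 in F_KO and 3.22 in F_WT. The 3 M_KO libraries were all above the F pair, and the 3 M_WT libraries all below it, so neither F library fell within either M group.

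The H2-Q1 mean was 7.50 ± 2.29 CPM in M_KO and 1.23 ± 0.18 CPM in M_WT (SD, n = 3 each), a 6.11-fold difference, with a fitted log2 fold change of 2.60 (SE 0.31). EdgeR gave it an adjusted p of 0.174 and DESeq2 an adjusted p of 1.41e-08, and over all alternatives it ran from 1.41e-08 to 0.581. The authors' deposited table lists a log2 fold change of 2.60 with an adjusted p of 1.13e-05, and H2-Q1 is the 1 class I row of 20 in the authors' deposited table with an adjusted p under 0.05. Between F_KO and F_WT the H2-Q1 ratio was 0.965, with an exact (Clopper-Pearson) 95% counting interval of 0.681 to 1.37. The interaction of genotype with the letter was -2.63 on the log2 scale (F effect minus M effect), with an unadjusted p of 0.00392 and an adjusted p of 0.965 in edgeR over all genes. The F pair has 1 library of each genotype, so the spread in that fit comes from the M libraries alone.

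Over the 8 libraries, the non-class I gene with the pattern most like H2-Q1 was Ddr1, a collagen receptor kinase gene of the same H2 region (chr17:35681567-35704621). Pearson's r of log2 CPM was 0.959 for Ddr1, 0.949 for Gm42715 and 0.946 for Pcbp3, each over 8 libraries and chosen as the highest of all genes. Ddr1 was at 1.58, 1.95 and 1.24 CPM in M_KO, against 0.640, 0.533 and 0.557 CPM in M_WT, and at 1.002 CPM in F_KO and 1.04 CPM in F_WT. As for H2-Q1, the F pair lay between the M groups. Ddr1 had 38 counts or fewer in every library.

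H2-Q5 (chr17:35394126-35397800), listed as a polymorphic pseudogene, had 29.8, 0.256 and 7.43 CPM in M_KO, against 47.0, 26.4 and 58.2 CPM in M_WT. It was at 9.55 CPM in F_KO and at 14.2 CPM in F_WT. M_KO_5645 had 5 counts of H2-Q5 where the other libraries had 186 to 1149, and M_KO_5944 was above M_WT_6258. The log2 fold change was -1.82 (SE 1.14, edgeR adjusted p = 0.629), and it was -1.25 without M_KO_5645 and -3.50 without M_KO_5944.

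H2-Q6 and H2-Q7, genes of the Qa-2 antigens, had like profiles. H2-Q6 was at 222, 87.8 and 34.4 CPM in M_KO, against 230, 124 and 277 CPM in M_WT, and at 66.2 CPM in F_KO and 72.1 CPM in F_WT. H2-Q7 was at 231, 78.5 and 36.5 CPM in M_KO, against 195, 103 and 232 CPM in M_WT, and at 47.6 CPM in F_KO and 63.6 CPM in F_WT. For both, M_KO_5944 lay within the M_WT range and M_KO_5642 was the lowest of all libraries. Their log2 fold changes were -0.88 (SE 0.65, edgeR adjusted p = 0.683) for H2-Q6 and -0.62 (SE 0.65, edgeR adjusted p = 0.784) for H2-Q7. Without M_KO_5944 they were -1.78 for H2-Q6 and -1.62 for H2-Q7, and without M_KO_5642 -0.45 and -0.20.

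H2-Q4 was at 284, 144 and 112 CPM in M_KO, against 243, 144 and 256 CPM in M_WT, and at 130 CPM in F_KO and 149 CPM in F_WT. These overlap, and the H2-Q4 log2 fold change was -0.26 (SE 0.39, edgeR adjusted p = 0.858), with -0.75 without M_KO_5944. H2-Q10 was at 2.999, 1.90 and 1.68 CPM in M_KO, against 1.28, 1.17 and 1.37 CPM in M_WT, and at 1.15 CPM in F_KO and 0.869 CPM in F_WT. Every M_KO library of H2-Q10 was above every M_WT library, on 20 to 53 counts a library. Its log2 fold change was 0.77 (SE 0.34, edgeR adjusted p = 0.534).

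In the T group, H2-T23, the gene of Qa-1, a ligand of inhibitory and activating receptors on natural killer cells, had 214, 4.87 and 69.3 CPM in M_KO, against 363, 256 and 324 CPM in M_WT. It was at 121 CPM in F_KO and at 112 CPM in F_WT. All 3 M_KO libraries were below all 3 M_WT libraries, and the F pair of both genotypes lay within the M_KO range. M_KO_5645 had 95 counts of H2-T23, where the other libraries had 1735 to 7371. The log2 fold change was -1.71 (SE 1.04, edgeR adjusted p = 0.624), and it was -1.15 without M_KO_5645 and -3.09 without M_KO_5944.

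H2-T22, whose product binds some gamma delta T cell receptors without a peptide, had 49.8, 4.87 and 17.4 CPM in M_KO, against 97.1, 50.4 and 70.9 CPM in M_WT, and 21.5 CPM in F_KO and 25.8 CPM in F_WT. The M groups did not overlap, though M_KO_5944 and M_WT_6258 were nearly equal. Its log2 fold change was -1.61 (SE 0.74, edgeR adjusted p = 0.547), and it was -1.12 without M_KO_5645 and -2.71 without M_KO_5944. H2-T10, near-identical to H2-T22 in coding sequence, had 26.3, 22.03 and 13.3 CPM in M_KO, against 24.2, 13.2 and 16.8 CPM in M_WT. It was at 19.7 CPM in F_KO and at 19.9 CPM in F_WT. H2-Bl and H2-T-ps lie between H2-T22 and H2-T10. M_KO_5645 was thus low for H2-T22 and not for H2-T10, and the H2-T10 groups overlap, with a log2 fold change of 0.18 (SE 0.32, edgeR adjusted p = 0.885) that was -0.04 without M_KO_5944 and -0.01 without M_WT_6258.

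H2-T24 had 8.20, 1.23 and 2.71 CPM in M_KO, against 21.9, 14.9 and 8.46 CPM in M_WT, and 5.59 CPM in F_KO and 4.43 CPM in F_WT. The M groups did not overlap, by the margin of M_KO_5944 to M_WT_6255. Its log2 fold change was -1.91 (SE 0.69, unadjusted p = 0.0291, edgeR adjusted p = 0.478), and it was -1.48 without M_KO_5645 and -2.93 without M_KO_5944. The pseudogene H2-T-ps was at 6.22, 4.25 and 3.99 CPM in M_KO, against 5.41, 5.38 and 6.78 CPM in M_WT, with overlapping groups and a log2 fold change of -0.29 (SE 0.25, edgeR adjusted p = 0.731). H2-T-ps was at 4.11 CPM in F_KO and at 4.61 CPM in F_WT.

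Of the M group, H2-M3, which presents N-formylated peptides of bacterial origin, had 39.4, 23.7 and 20.3 CPM in M_KO, against 38.4, 29.9 and 39.8 CPM in M_WT, and 17.9 CPM in F_KO and 28.3 CPM in F_WT. The M groups overlap through M_KO_5944, and the H2-M3 log2 fold change was -0.38 (SE 0.27, edgeR adjusted p = 0.671). H2-M2 (ENSMUSG00000016283, chr17:37480851-37483552, minus strand) had 19, 3 and 6 counts in M_KO, against 47, 86 and 27 counts in M_WT, and 3 counts in F_KO and 45 counts in F_WT. The 3 libraries at 6 counts or fewer were all KO.

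In CPM, H2-M2 was at 1.08, 0.154 and 0.240 in M_KO, against 2.31, 4.58 and 1.37 in M_WT, and at 0.143 in F_KO and 1.96 in F_WT. It was lower in all 4 KO libraries than in all 4 WT libraries, the 1 class I row of 16 of which this held, beside 2.42% of all genes tested. No class I row was higher in all 4 KO libraries (0 of 16), beside 3.22% of all. The M_KO mean was 0.489 ± 0.509 CPM and the M_WT mean 2.75 ± 1.65 CPM (SD, n = 3 each), with a log2 fold change of -2.52 (SE 0.80, unadjusted p = 0.0167, edgeR adjusted p = 0.474). Leaving out each M library gave -3.75 (without M_KO_5944) to -1.95 (without M_WT_6258). DESeq2 gave H2-M2 an adjusted p of 0.0786, and the F ratio of KO over WT was 0.0732 with an exact 95% counting interval of 0.0146 to 0.228.

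H2-K2, the pseudogene of the K subregion, was at 20.99, 15.3 and 26.4 CPM in M_KO, against 15.9, 17.9 and 20.1 CPM in M_WT, and at 16.0 CPM in F_KO and 13.8 CPM in F_WT. The groups overlap, and its log2 fold change was 0.21 (SE 0.22, edgeR adjusted p = 0.781).

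Counted over the 16 rows, 4 were lower in every M_KO library than in every M_WT library, H2-T24, H2-T23, H2-T22 and H2-M2, beside 6.95% of all genes tested. H2-Q1 and H2-Q10, 2 of the 16, were higher in every M_KO library, beside 9.09% of all. Together they were 37.5% of the class I rows, beside 16.0% of all genes and 20.6% of the 102 tested other rows of the same H2 region. For rows without overlap, the exact two-sided permutation test of 3 libraries against 3 always gives its smallest p, 0.1. It therefore adds nothing for these 6 rows. The count of lower rows was 10 without M_KO_5944, beside 13.9% of all genes tested, and 7 without M_WT_6258, beside 9.75%. In the 6 further rows of the 10 without M_KO_5944 the groups overlapped through M_KO_5944 alone.

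Patterns in which a gene is nearly off in some libraries were marked by 2 rules. A row was on/off if its lowest library had at most 3 counts and its highest at least 30, and it had a wide gap if neighbouring libraries in order of level differed at least 4-fold in CPM, floored at 3 counts. H2-M2 was on/off, 1 of 16 rows, beside 2.66% of the 12883 gene rows that reached 30 counts. H2-Q5 (29.0-fold), H2-T23 (14.2-fold) and H2-M2 (4.49-fold) had a wide gap, 3 of 16 rows, beside 1.52% of all. By either rule it was 18.8% of the class I rows, beside 3.27% of all rows.

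For H2-Q5 and H2-T23 the library under the gap was M_KO_5645 alone, and for H2-M2 it was M_KO_5645, M_KO_5642 and F_KO_5639. Over the median of the other 7 libraries, M_KO_5645 was at 0.970% for H2-Q5, 2.27% for H2-T23 and 9.77% for H2-T22. It was at 11.2% for H2-M2, 15.0% for H2-T24 and 30.4% for H2-K1. The same library was at 129% of that median for H2-D1, 96.7% for H2-Q4 and 112% for H2-T10. Along the chromosome, the low rows were H2-K1, then H2-Q5 between H2-Q4 and H2-Q6, then the neighbours H2-T24, H2-T23 and H2-T22, and last H2-M2. M_KO_5645 was the lowest library for 5 of 16 class I rows (31.2%), beside 18.6% of all gene rows. M_KO_5642 was the lowest for 4 of 16 (25.0%), beside 15.2%, and F_WT_5638 for 3 of 16 (18.8%), beside 7.45%. A level under 50% of the median of the other libraries was found for 6 class I rows in M_KO_5645, beside 4.38% of all rows. Such a level was found for 8 in M_KO_5642, beside 7.67%, and for 4 in F_KO_5639, beside 3.98%. Each M_WT library had 1 such row, beside 3.93% to 5.3%. M_KO_5944 and F_WT_5638 had 0, beside 3.0% and 3.01%. Without M_KO_5645, 1 row, H2-M2, had a wide gap.

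**Figure D4:**
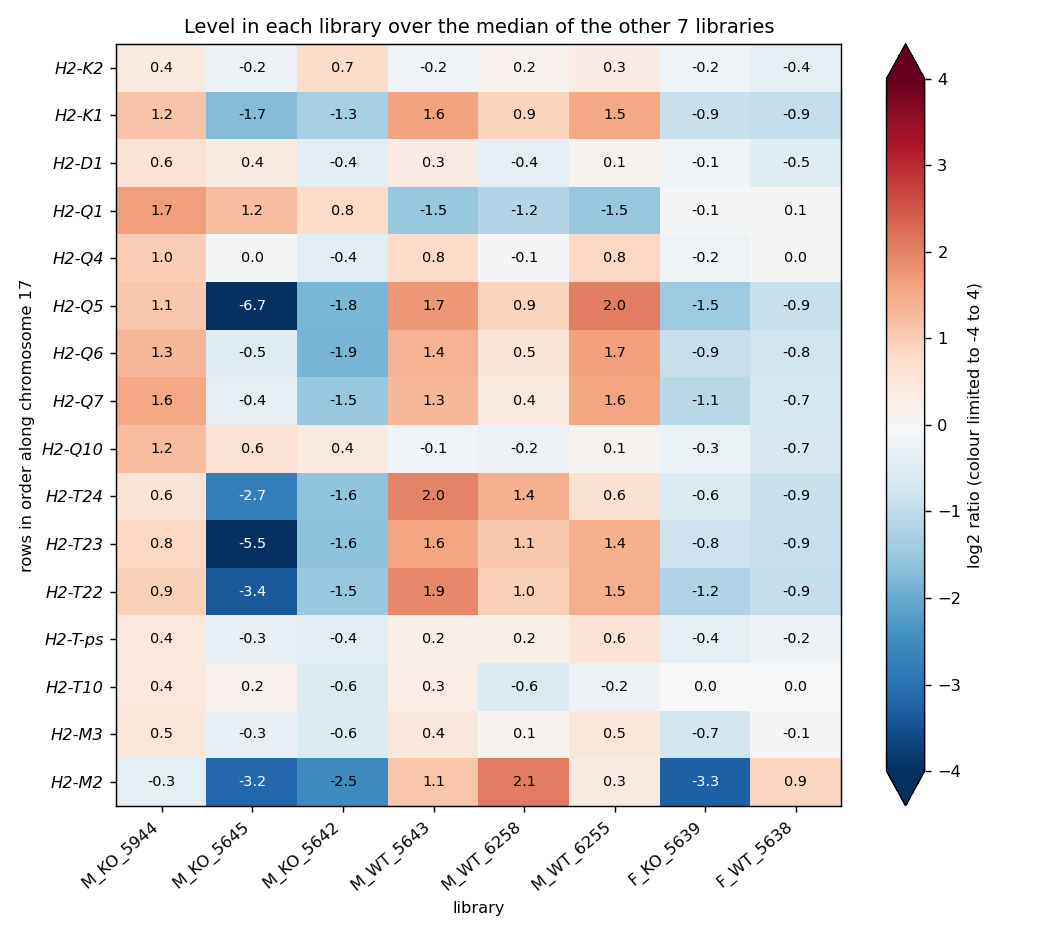
Log2 ratio of each library's CPM to the median of the other 7 libraries, for the 16 class I rows in order along chromosome 17 (top to bottom) and with KO libraries left of WT libraries for each letter. M_KO_5645 shows deep blue cells for H2-Q5, H2-T24, H2-T23, H2-T22 and H2-M2 and a lighter blue cell for H2-K1. The H2-Q1 row is red in all 3 M_KO libraries and blue in all 3 M_WT libraries.

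The same 2 rules were applied to the other 286 rows of the region from H2-K2 to H2-M2 (chr17:33974831-37483552), of which 94 reached 30 counts, and they marked 3 (3.19%). H2-Eb1, the class II beta chain gene of the E molecule, was at 463, 12.3 and 250 CPM in M_KO, against 1007, 695 and 555 CPM in M_WT, and at 299 CPM in F_KO and 305 CPM in F_WT. M_KO_5645 was again the low library. H2-Ea-ps, the E alpha chain gene, which is not transcribed in the H2-b haplotype of the C57BL/6 reference strain, was at 5.21, 11.6 and 2.83 CPM in M_KO, with 0 counts in all 3 M_WT libraries, and at 5.25 CPM in F_KO and 4.997 CPM in F_WT. M_KO_5645 had the highest H2-Ea-ps level. Tnxb, the third row, stood out in M_WT_6258 at 53.6 CPM, where the other libraries were at 4.38 to 10.8 CPM.

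H2-Ea-ps was thus read in all 5 libraries outside M_WT, and H2-Q1 was higher in each of those 5 than in each M_WT library. The lowest H2-T23, H2-Q5 and H2-Eb1 and the highest H2-Ea-ps came from the same library. The H2 haplotypes of the mice are not given in the labels, and their part in the levels of class I rows was not tested.

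The genes that load and carry class I peptides were taken as a list of 21, all of which were tested. EdgeR called 0 of the 21, beside 0.022% of all genes, and DESeq2 0, beside 1.09%. In edgeR 0 had an unadjusted p under 0.05, beside 9.56% of all genes. The fitted log2 fold change was below 0 for 18 of the 21, beside 48.5% of all genes, with a median of -0.26, beside 0.01 over all genes. M_KO and M_WT did not overlap for 0 of the 21, beside 16.0% of all genes. In M_KO_5944 the sum of the 21 was 6944 CPM, against 4511 CPM in M_KO_5645 and 4646 CPM in M_KO_5642, and it was 6632 to 7455 CPM in M_WT, 4747 CPM in F_KO and 5471 CPM in F_WT.

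B2m, the light chain, was at 2596, 1293 and 1207 CPM in M_KO, against 2557, 2358 and 2940 CPM in M_WT, and at 1141 CPM in F_KO and 1450 CPM in F_WT. As for H2-K1, M_KO_5944 was within the M_WT range and the other M_KO libraries below it. The B2m log2 fold change was -0.63 (SE 0.32, edgeR adjusted p = 0.570), with -1.07 without M_KO_5944. Nlrc5, the transactivator of class I promoters, was at 88.5, 37.3 and 37.9 CPM in M_KO, against 87.5, 79.4 and 103 CPM in M_WT, and at 32.3 CPM in F_KO and 57.9 CPM in F_WT. It showed the same order, with a log2 fold change of -0.73 (SE 0.35, edgeR adjusted p = 0.560), and -1.26 without M_KO_5944.

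Tap1, of the peptide transporter, was at 123, 37.4 and 27.7 CPM in M_KO, against 140, 83.5 and 89.5 CPM in M_WT, and at 40.8 CPM in F_KO and 54.0 CPM in F_WT. Its groups overlap through M_KO_5944, with a log2 fold change of -0.74 (SE 0.56, edgeR adjusted p = 0.691) that was -1.68 without M_KO_5944 and -0.38 without M_KO_5642. Tap2, the other transporter subunit, had a log2 fold change of -0.11 (SE 0.29, edgeR adjusted p = 0.923), and its sign turned when M_KO_5645, M_KO_5642 or M_WT_5643 was left out. Tapbp, which bridges the transporter and the heavy chain, had -0.29 (SE 0.34, edgeR adjusted p = 0.808). The chaperones Pdia3, Canx and Calr had log2 fold changes of -0.30, -0.29 and -0.26 and the promoter factor Rfx5 -0.27, with edgeR adjusted p of 0.587, 0.592, 0.646 and 0.660.

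Class I-like genes outside the H2 pattern, and receptors of class I molecules with related leukocyte receptors, were counted in the same fit. Of 12 class I-like genes, 8 were tested, and edgeR called 0, beside 0.022% of all genes, while DESeq2 called 1, beside 1.09%. It was Procr, the protein C receptor gene. Procr was at 6.17, 2.61 and 2.83 CPM in M_KO, against 9.45, 13.4 and 9.22 CPM in M_WT, and at 4.68 CPM in F_KO and 4.30 CPM in F_WT, and the M groups did not overlap. Its log2 fold change was -1.48 (SE 0.38, edgeR adjusted p = 0.434, DESeq2 adjusted p = 0.0304). Of 17 receptor genes, 13 were in the table and 8 were tested, and edgeR called 0, beside 0.022% of all genes, while DESeq2 called 1, beside 1.09%. It was Lilra5, an activating leukocyte receptor gene. Whether its product binds class I molecules was not tested. Lilra5 was at 7.36, 13.1 and 4.11 CPM in M_KO, against 2.02, 2.40 and 3.19 CPM in M_WT, and at 5.30 CPM in F_KO and in F_WT, with a log2 fold change of 1.68 (SE 0.45, edgeR adjusted p = 0.434, DESeq2 adjusted p = 0.0372).

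Other cells carry class I molecules too, and markers of some of them differed between libraries. The summed level of 6 B cell markers was 291, 575 and 189 CPM in M_KO, against 386, 128 and 124 CPM in M_WT, and 622 CPM in F_KO and 378 CPM in F_WT. All 6 B cell markers passed the expression filter, and the M groups overlap in their sum. The fitted log2 fold change was above 0 for all 6, with a median of 0.75, beside 0.01 over all genes. In edgeR 0 of the 6 had an unadjusted p under 0.05, beside 9.56% of all genes. Dendritic cell markers, 6 in all, summed to 12.1, 13.4 and 16.0 CPM in M_KO, against 23.6, 40.8 and 28.6 CPM in M_WT, and to 18.8 CPM in F_KO and 22.2 CPM in F_WT, and the M groups did not overlap in this sum. Of these, Cd209a was at 0.154 CPM or less in M_KO and at 0.0984, 15.3 and 14.5 CPM in M_WT. Without Cd209a the sum was 12.1, 13.2 and 16.05 CPM in M_KO, against 23.5, 25.5 and 14.1 CPM in M_WT, and the groups overlapped. EdgeR tested 4 of the dendritic cell markers, of which 3 had a fitted fold change below 0 and 1 above. At an unadjusted p under 0.05 it found 2 of the 4 lower, beside 4.22% of all genes. Neutrophil markers summed to 3.09 to 15.8 CPM and mast cell markers to 1.60 to 17.8 CPM. Marker sums of T cells, natural killer cells, eosinophils and mesothelium stayed at 6.07 CPM or less in every library. The part of these cells in the class I levels was not tested.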

How the data were processed

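RNA of 8 libraries was grouped by the sample titles and genotype labels into 3 M_KO, 3 M_WT, 1 F_KO and 1 F_WT. The library kit was NEBNext Ultra RNA, per the labels' protocols. Builds GRCm38 and mm10, the aligner HISAT2 (2.0.5), the counter featureCounts (1.5.0-p3) and the test package DESeq2 (1.16.1) are named in the submitters' processing notes. Not given in the sources used here are the strand setting, the annotation release and the treatment of reads that match several genes. Values of the deposited count table are whole, unnormalized read counts, and the deposited FPKM table scales them to gene length and library size. The deposited table of the authors' own test, M_KO over M_WT, holds a per-library signal, which is not used in any value here, with log2 fold changes and p-values. No deposited value column lacked a sample or group (0 columns).

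The M comparison used edgeR 4.0.16 under R 4.3.3: quasi-likelihood test, TMM scaling and default expression filter on genotype, for 13646 genes in 6 libraries. The biological coefficient of variation was 0.30, with 4 residual degrees of freedom, and p-values had Benjamini-Hochberg adjustment over all genes tested. Standard errors of log2 fold changes come from the quasi-likelihood F statistic. The interaction was fitted over 8 libraries (13751 genes), with a spread that the M libraries alone give. F_KO and F_WT, with 1 library each, were compared with each other without a test, as log2 CPM with a prior count of 2 and as ratios of counts. Likeness to H2-Q1 used log2(CPM + 0.5).

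Coordinates are those of the deposited count table, and 31 of 33 class I rows have the same ones in GENCODE M21, from which transcripts were read. Promoters are from RefSeq (24 of 33 rows matched). Scripts were tested on simulated data. In simulated counts of 13646 genes for the M comparison, edgeR called 11% of planted 2-fold and 72% of planted 4-fold changes. Of its 91 calls, 8 were false. DESeq2 called 38% and 83% of these changes, and 47 of its 168 calls were false. Alternatives were DESeq2 1.42.0, RLE scaling, no filter or a stricter filter (1 CPM in 3 libraries), a fit over 8 libraries, other limits of the on/off and gap rules, and leaving out each library, of which some were chosen after the data were seen.

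The class I rows and the gene lists were chosen with earlier results of these data known. Named are all class I rows with 30 counts in a library, B2m, Tap1, Tap2, Tapbp and Nlrc5, the 4 other pathway genes with the smallest p, the 3 genes most like H2-Q1 and region rows with an on/off pattern. H2-Eb1, Tnxb, Procr, Lilra5, Cd209a and the ratio of H2-D1 to H2-K1 were named after their values were seen.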

Additional observations from a re-analysis of the deposited data

How the results depend on the processing

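Among all genes, the edgeR test called 3 in M_KO against M_WT, while DESeq2 called 181, edgeR without a filter on low counts 16 and the fit over all 8 libraries 1. Leaving out each M library in turn gave 0 to 21, with 21 without M_WT_5643 and 0 without M_WT_6255. Of the class I rows, 0 were called by edgeR, 1 by DESeq2 and 1 without the filter, H2-Q1 both times (adjusted p of 0.0226 without the filter), and 0 when any M library was left out. Of 176 fold changes of the 16 class I rows under 11 alternatives, 171 kept their sign and their side of the threshold. Reversed were H2-D1 (-0.021 without M_KO_5944) and H2-T10 (-0.035 without M_KO_5944 and -0.012 without M_WT_6258), and of 99 fold changes of the 9 named pathway genes those of Tap2 (0.072, 0.042 and 0.00084 without M_KO_5645, M_KO_5642 and M_WT_5643). Leaving out each M library gave -0.021 to 0.389 for H2-D1, -0.035 to 0.453 for H2-T10 and -0.496 to 0.072 for Tap2. The adjusted p of H2-K1 ran from 0.118 to 0.923 over its alternatives. The on/off rule marked 0 class I rows when the highest library had to reach 100 counts, beside 0.492% of all rows reaching that. The gap rule marked 2 at 8-fold, beside 0.52% of all rows, and 1 to 4 when each library was left out, beside 1.53% to 1.85%. When each M library was left out, rows lower in every M_KO library numbered 4 to 10, beside 9.75% to 14.8% of all genes tested, and rows higher 2 to 3, beside 12.1% to 16.4%. The cause of the other changes was not tested. Low counts limit the precision of H2-Q1 in M_WT (22 to 27 counts), of H2-M2 in the 3 lowest libraries (3 to 6) and of H2-Q10 (20 to 53). No paired analysis was possible because the groups share no sample numbers.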
